A study of Mus musculus with 4 samples.

Results

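The widest H3K9ac domains of the CM library were the 228 of its 16419 listed peaks that were longer than 5000 bp, chosen by their length alone. They made up 1.39% of the peaks and 6.22% of the listed length, or 1.43 Mb. H3K9ac, histone H3 acetylated at lysine 9, was mapped by chromatin immunoprecipitation and sequencing (ChIP-seq) in mouse myeloid-derived suppressor cells (MDSC) grown from bone marrow (BM) and, per the series' design text, made senescent in vitro. One group is labelled CM, an abbreviation the labels do not expand, and the other is CM plus romidepsin, an inhibitor of histone deacetylases. Both groups are the same kind of cell, and strain, age, sex, dose, exposure time and the number of mice behind each library are not given in the sources used here. Of the 4 samples, the immunoprecipitated library of each condition gave a peak list, and the 2 input libraries were not analysed here. With 1 library per condition no difference has a replicate check and no test was run. Read depth is unknown, and how far a peak is called can move with depth, so the extent of a peak under romidepsin and the depth of its library cannot be told apart here.

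H3K9ac is placed by acetyltransferases at active promoters and enhancers, and class I histone deacetylases, the main targets of romidepsin, remove it. At most active genes the mark sits as a short block at the transcription start, whereas long blocks that run into the gene body are known from strongly transcribed genes and genes that define a cell type. MDSC are immature myeloid cells, relatives of monocytes and neutrophils, known for restraining T cells.

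The label was checked against 18 genes of monocytic and neutrophil cells. Of these, 15 had a CM peak within 1 kb and 18 had a romidepsin peak there. The same share over all genes was not computed, so these counts alone do not set the 18 genes apart. By start alone, 45% of protein-coding genes with an annotated start began in a CM peak and 59.1% in a romidepsin peak. Ly6g, Mpo and S100a9 had no CM peak. Wide domains lay on 2 of the 18, Lyz2, encoding lysozyme (5.47 kb), and Spi1, encoding the myeloid master regulator PU.1 (7.41 kb). Among genes with a start in the RefSeq table used (GRCm38.p6, the assembly of mm10), no lymphocyte gene (0 of 16), no erythroid, megakaryocyte, mast cell or stromal gene (0 of 16) and no neuron, liver, muscle or germ cell gene (0 of 17) started in a domain. Of all 17492 protein-coding genes with a listed start, 1.15% started in a domain, so a count of 0 in lists of this size lies near the share of all genes. Of those lists 1, 3 and 0 genes started in any CM peak, beside 45% of all genes.

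The bases before the starts under 6 domains are printed because they set the widest domains beside those past whose edges the deposited romidepsin peaks reached least. They are the 3 widest domains with a protein-coding start in the table and the 3 such domains with the smallest extension as deposited. With romidepsin peaks less than 1 kb apart joined, the latter had 16.8 kb (Gm21188), 37.7 kb (Capza2) and 16.7 kb (Il21r) in all. The median over all domains was then 23.9 kb, so the choice of these 3 turned on narrow gaps between romidepsin peaks. Each line gives the 250 bases upstream of the first start in the domain, from RefSeq GRCm38.p6, 5′ to 3′ on the strand of the gene, with CpG dinucleotides in capitals. The windows are chr3:95658471-95658720 (plus strand, Mcl1), chr10:60277378-60277627 (plus, Psap), chr11:120633548-120633797 (minus, Mafg), chr13:120052205-120052454 (minus, Gm21188), chr6:17636760-17637009 (plus, Capza2) and chr7:125603179-125603428 (plus, Il21r).
Mcl1: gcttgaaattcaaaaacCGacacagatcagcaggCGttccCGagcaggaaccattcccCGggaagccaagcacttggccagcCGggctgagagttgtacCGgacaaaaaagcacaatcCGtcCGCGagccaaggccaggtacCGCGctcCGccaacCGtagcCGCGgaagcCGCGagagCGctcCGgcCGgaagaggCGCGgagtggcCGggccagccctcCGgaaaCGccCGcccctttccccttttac
Psap: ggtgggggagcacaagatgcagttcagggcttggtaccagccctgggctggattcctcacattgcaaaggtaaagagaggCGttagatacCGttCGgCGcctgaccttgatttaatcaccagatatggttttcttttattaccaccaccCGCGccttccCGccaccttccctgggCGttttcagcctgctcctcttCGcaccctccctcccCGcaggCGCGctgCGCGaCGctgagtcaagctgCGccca
Mafg: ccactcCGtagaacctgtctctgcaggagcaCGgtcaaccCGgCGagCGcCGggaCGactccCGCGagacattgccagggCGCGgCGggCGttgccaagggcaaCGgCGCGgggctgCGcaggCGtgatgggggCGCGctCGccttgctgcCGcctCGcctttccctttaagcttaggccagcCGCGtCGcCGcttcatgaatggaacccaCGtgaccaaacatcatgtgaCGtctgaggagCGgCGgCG
Gm21188: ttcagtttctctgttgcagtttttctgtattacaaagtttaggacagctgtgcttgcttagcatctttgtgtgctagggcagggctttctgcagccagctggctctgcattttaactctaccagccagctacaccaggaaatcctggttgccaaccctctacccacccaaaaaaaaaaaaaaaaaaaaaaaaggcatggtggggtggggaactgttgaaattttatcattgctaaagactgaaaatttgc
Capza2: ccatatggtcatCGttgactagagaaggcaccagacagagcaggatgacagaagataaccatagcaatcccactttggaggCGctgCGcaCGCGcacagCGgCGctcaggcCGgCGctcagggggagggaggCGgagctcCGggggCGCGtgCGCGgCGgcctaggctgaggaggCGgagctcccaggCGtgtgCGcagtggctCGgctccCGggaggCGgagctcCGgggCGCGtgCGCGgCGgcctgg
Il21r: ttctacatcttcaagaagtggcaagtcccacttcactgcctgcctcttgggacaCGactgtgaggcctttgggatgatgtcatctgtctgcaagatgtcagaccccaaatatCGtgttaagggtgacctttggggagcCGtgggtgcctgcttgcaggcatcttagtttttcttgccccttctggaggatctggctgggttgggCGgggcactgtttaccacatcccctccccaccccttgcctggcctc
The Mcl1, Psap and Mafg windows held 26, 16 and 32 CpG, at a G+C content of 64.4%, 58.8% and 68%. The other windows were not alike. Capza2 held 28 CpG at 70.4% G+C, Il21r 4 at 55.6% and Gm21188 none at 42.4%. Over all 254 listed starts of the 201 protein-coding genes that begin in a domain, the same windows had a median of 18 CpG and 64.4% G+C. The median was 10 CpG and 55.6% over all 21263 starts in the table, and 20 CpG and 64% over the 3416 starts in CM peaks of 2 to 5 kb. A GC box, GGGCGG or its reverse complement CCGCCC, stood in 66.5% of the windows in domains, in 65.8% of those in CM peaks of 2 to 5 kb and in 42.6% of all. A CCAAT box (CCAAT or ATTGG) stood in 28.0%, 33.2% and 35.4%, and TATAAA, searched as read, in 5.12%, 3.02% and 7.67%. A GC box and ATTGG can share bases at their ends. Starts in CM peaks up to 2 kb had a median of 17 CpG and 60.4% G+C, with a GC box in 61.5%. For starts in no CM peak these values were 4, 50.4% and 26.8%. By base composition the starts under domains thus lay close to those under other CM peaks. Standing apart from starts as a whole was not particular to them.

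The second widest domain also holds the gene of a microRNA, miR-21a, which is abundant in myeloid cells. Its mature forms are printed with the seed, bases 2 to 8, in capitals, from the hairpin at chr11:86584067-86584158 on the minus strand.
miR-21a-5p: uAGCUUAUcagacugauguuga
miR-21a-3p: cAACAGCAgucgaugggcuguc
Of 1005 listed microRNA hairpins, 5 (0.498%) lay in a domain. The others were Mir6936 in the domain of Mafg and Sirt7, Mir1932 in that of Rnf213, Mir6935 in that of Actg1 and Mir1894 in that of Mrps18b and Ppp1r10. No pair of their listed mature forms shared a seed.

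Domain lengths ran from 5011 to 11717 bp with a median of 5764 bp. Of the 228 domains 103 were above 6 kb, 53 above 7 kb, 22 above 8 kb and 7 above 10 kb. Just inside the limit lay the domains of Srgn, encoding the granule proteoglycan serglycin (5016 bp), Rhoa and Tcta (5013 bp) and St3gal1 (5011 bp). Just outside it lay the peaks at Nfam1 (4999 bp), Cd93 (4991 bp) and Stard3 (4989 bp), so the limit cuts through a continuous range. The fold enrichment over background that the authors' list gives for each peak, an average over the whole peak, had a median of 6.34 in domains (3.39 to 8.39) and 5.04 over all CM peaks, and 220 of the 228 stood above the latter. Fold and length come from the same library, so this is a description of the chosen peaks. Among the domains themselves length and fold hardly ran together (Spearman's rho 0.03 over 228 domains that share 1 library).

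The 10 widest domains lay on genes of several kinds. Mcl1, an anti-apoptotic BCL2 family member, had the widest (11.7 kb, fold 7.35). It began 1.34 kb upstream of the listed start and ended 10.4 kb downstream of it. The annotated extent of Mcl1 runs from -1.78 to 4.46 kb around that start, so the upstream edge of the domain lay inside it. Psap, the precursor of the lysosomal saposins, had 10961 bp at a fold of 7.09. A domain of 10.7 kb covered Mafg, a small MAF transcription factor, together with Sirt7, an NAD-dependent deacylase (fold 5.75). Bicra, a BAF complex subunit (10.3 kb, fold 6.14), and Irf2bp2, a transcriptional corepressor whose whole gene lay in the domain (10.3 kb, fold 7.92), came next among protein-coding genes. Setd1b, which encodes an H3K4 methyltransferase (9.64 kb, fold 7.18), and Dusp6, a phosphatase of ERK (9.52 kb, fold 6.64), closed the 10. The long non-coding RNAs Neat1, the scaffold of paraspeckles (10.2 kb, fold 7.03), and Malat1, a nuclear speckle RNA (9.78 kb, fold 7.15), ranked seventh and eighth. Thus 2 of the 10 widest stood on nuclear non-coding RNAs.

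The Vmp1 domain, at chr11:86577559-86588892 (11.3 kb, fold 6.87), lay at the far end of Vmp1, an autophagy gene on the minus strand. It began 82.3 to 94.9 kb downstream of the 3 listed Vmp1 starts and took in the miR-21a hairpin. Such positions were the exception. A protein-coding start in the table lay in 174 of the 228 domains (76.3%, exact Clopper-Pearson 95% interval 70.3 to 81.7, which, like all intervals here, covers counting error only). The same share was 44.5% over all CM peaks, 73.4% at 2 to 5 kb and 77.3% at 4 to 5 kb. Holding a start therefore did not set the domains apart from other CM peaks above 2 kb. A further 33 domains held an edge of the annotated extent of a gene whose start is not in the table. That edge may be the 5′ or the 3′ end. Another 15 lay inside or at the far end of a gene, and 6 held only non-coding genes or pseudogenes. Of the 15, those at Map3k14, Actr3, Bahcc1, Rara and Tnrc18 lay only 0.018 to 0.382 kb from a listed start. With starts within 1 kb counted, the share of domains with a start was 78.5%. Lcp1, encoding the leukocyte actin bundler L-plastin, was another gene with a domain far inside it, 38.3 and 43.6 kb downstream of its 2 listed starts. Of the 174 domains, 150 held starts of 1 gene and 24 of 2 or more, and in 21 starts lay on both strands. The 24 were 10.5% of all domains, beside 12.7% of CM peaks of 2 to 5 kb. In 30 domains a protein-coding gene lay wholly inside. Counting any part of a gene, 275 of 21900 protein-coding genes (1.26%) lay in a domain. The 228 domains were spread over every autosome. The most lay on chromosome 11 (29, 2.06% of its CM peaks), chromosome 7 (24, 2.03%) and chromosome 2 (22, 1.67%). Over all CM peaks the share was 1.39%, and it was largest on chromosome 19 (16 domains, 2.60%). None lay on X, where the widest of 324 CM peaks measured 4156 bp.

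Where a domain held a single start of a single gene (123 domains), it ran mostly into the gene. It began a median of 1.20 kb upstream of the start (order-statistic 95% interval 1.03 to 1.46) and ended 4.66 kb downstream of it (4.38 to 4.83). It reached further downstream than upstream in 114 of 123 (92.7%), with a median of 80.4% of its length downstream. Peaks of 2 to 5 kb with a single start (1729) leaned the same way, with 88.5% reaching further downstream and 70.5% of their length there. The start lay within 1 kb of the upstream edge in 48 domains. Bcl11a, a zinc finger repressor of blood cell development, was an exception, with 4.67 kb of its domain upstream and 1.74 kb downstream. Actg1 (3.08 and 2.60 kb) and Capzb (2.90 and 2.66 kb) also had the larger share upstream of the listed start. The annotated extent of Capzb begins at -1.21 kb from that start, so part of its upstream share lay in the gene. In 19 of the 123 the domain passed the far end of the gene.

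**Figure D1:**
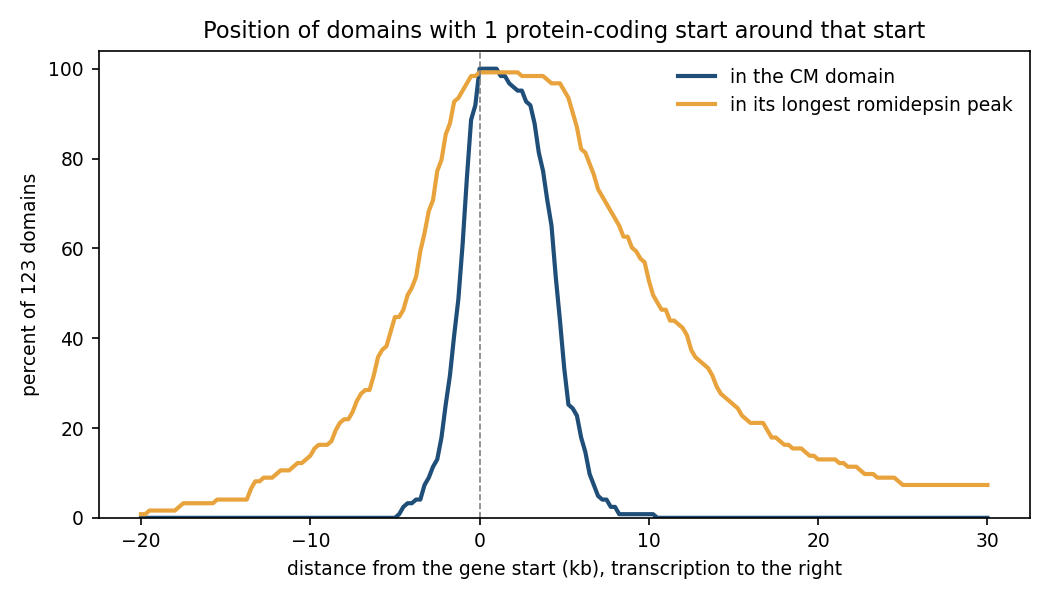
Share of the 123 domains with 1 protein-coding start (percent, vertical axis) that cover each distance from that start (kb, horizontal axis, transcription to the right), for the CM domain (blue) and its longest romidepsin peak (orange). At 10 kb downstream 0.813% of the domains and 52.8% of the romidepsin peaks cover the position, and at 10 kb upstream 0% and 13.8%.

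Genes were grouped by 18 lists, chosen with earlier results of these data known, so the shares and their order are descriptive only. A gene was counted where its start lay in a domain. Of 17492 protein-coding genes with a start in the table, 201 (1.15%) did. The actin cytoskeleton and cell movement list had the most, 11 of 27 (40.7%). They were Actg1, Arpc2, Capza2, Capzb, Coro1a, Fmnl1, Myh9, Pfn1, Rhoa, Tln1 and Vim, and 14 of 27 started in a CM peak above 4 kb, beside 2.37% of all genes. Myh9, the heavy chain of non-muscle myosin IIA, had 7.23 kb, and Fmnl1, a formin of blood cells, 7.92 kb. Actb, whose start is not in the table, lay wholly inside a domain of 8.54 kb. The genes thus included the actins, a capping protein's subunits, profilin, a formin and an Arp2/3 subunit.

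Immediate early and AP-1 genes came next with 6 of 20 (30%). Atf3, a stress-induced transcription factor, had 7.84 kb. Sgk1, a serum- and glucocorticoid-induced kinase, had 7.23 kb, Btg1, an antiproliferative gene, 6995 bp, Fos 5.52 kb and Fosl2 5.43 kb, the last 2 being AP-1 subunits. Zfp36, encoding tristetraprolin, which destabilises cytokine mRNA, had 5.28 kb at a fold of 7.80. Its relative Zfp36l2, whose start is not in the table, lay wholly inside a domain of 9.13 kb, the eleventh widest. Of the same list 17 of 20 genes started in some CM peak, against 45% of all genes with a start in the table.

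Among myeloid and haematopoietic transcription factors 5 of 18 (27.8%) started in a domain. These were Zeb2 (7.98 kb), Ikzf1, encoding Ikaros (7.52 kb), Cebpb (6.61 kb), a factor required for emergency granulopoiesis, Klf6 (6.11 kb) and Cebpa (5.40 kb), a factor required for granulocyte formation. Both C/EBP genes, which have no intron, lay wholly inside their domains. Spi1, whose start is not in the table, had a domain of 7.41 kb over the low-coordinate edge of its annotated extent.

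The NF-kappaB pathway list had 3 of 20 (15%), these 3 being feedback or target genes and none a subunit. They were Nfkbia, the inhibitor of NF-kappaB (5.24 kb), Socs3, the inhibitor of cytokine receptor signalling (6.38 kb), and Pim1, a survival kinase (5.61 kb). Counting any part of a gene made it 4, with Map3k8, a kinase of the pathway whose start is not in the table. The description as feedback or target genes covers only the 3 with a listed start. Lysosome and autophagy genes had 3 of 21 (14.3%), namely Psap, Ctsd, encoding cathepsin D (5.90 kb), and Grn, encoding progranulin (5.74 kb). Counting any part of a gene made it 5, with Ctsb, encoding cathepsin B, and Vmp1. Of the myeloid suppression list 2 of 14 (14.3%) counted, Cd274, encoding the checkpoint ligand PD-L1 (6.19 kb), and Vsir, encoding the checkpoint protein VISTA (5.09 kb). Cell survival genes had 2 of 21 (9.52%), Mcl1 and the pro-apoptotic Bcl2l11, encoding BIM (6.23 kb). In that list the domains lay on genes of opposite roles.

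Myeloid surface receptors had 2 of 21 (9.52%), the chemokine receptor Ccr2 (8.30 kb) and Il4ra (7.85 kb), the latter known for its part in MDSC suppression. With a limit of 4 kb, at which 2.37% of all genes counted, it was 5, with Fcer1g, Ptprc and Ifngr2. Interferon genes had 2 of 22 (9.09%), B2m, the light chain of MHC class I (6.05 kb), and Irf2 (5.72 kb), and 4 with a limit of 4 kb, with Irf1 and Isg15. Single genes counted in 4 further lists. They were Plin2, which coats lipid droplets (8.06 kb, 1 of 13), Rpl18 (5.13 kb, shared with Sphk2, 1 of 16 ribosomal protein genes), Vegfa (5.56 kb, 1 of 17 secreted factors) and Brd2, a bromodomain reader of acetylated histones (7.82 kb, shared with H2-DMa, 1 of 20 deacetylases, acetyltransferases and readers). No histone deacetylase or acetyltransferase gene of that list was among them, an absence that lies near the 1.15% of all genes. A single gene in a list of 13 to 20 does not set that list apart. Counting any part of a gene, the list of Plin2 had 2, with Tyrobp, encoding the adaptor DAP12.

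DNA replication and cell division genes had 0 of 22 and the senescence and cell cycle arrest list 0 of 15, counts that lie near the 1.15% of all genes. In these lists 17 of 22 and 11 of 15 genes started in some CM peak, beside 45% of all genes. Of the senescence list 6 of 15 started in a peak above 4 kb, beside 2.37% of all genes, namely Gadd45b (4948 bp), Ccnd3 (4829 bp), Hmga1 (4800 bp), Cdkn2d (4406 bp), Trp53 (4308 bp) and Cdkn1b (4221 bp). The count for this list therefore turns on the limit of 5 kb.

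**Figure D2:**
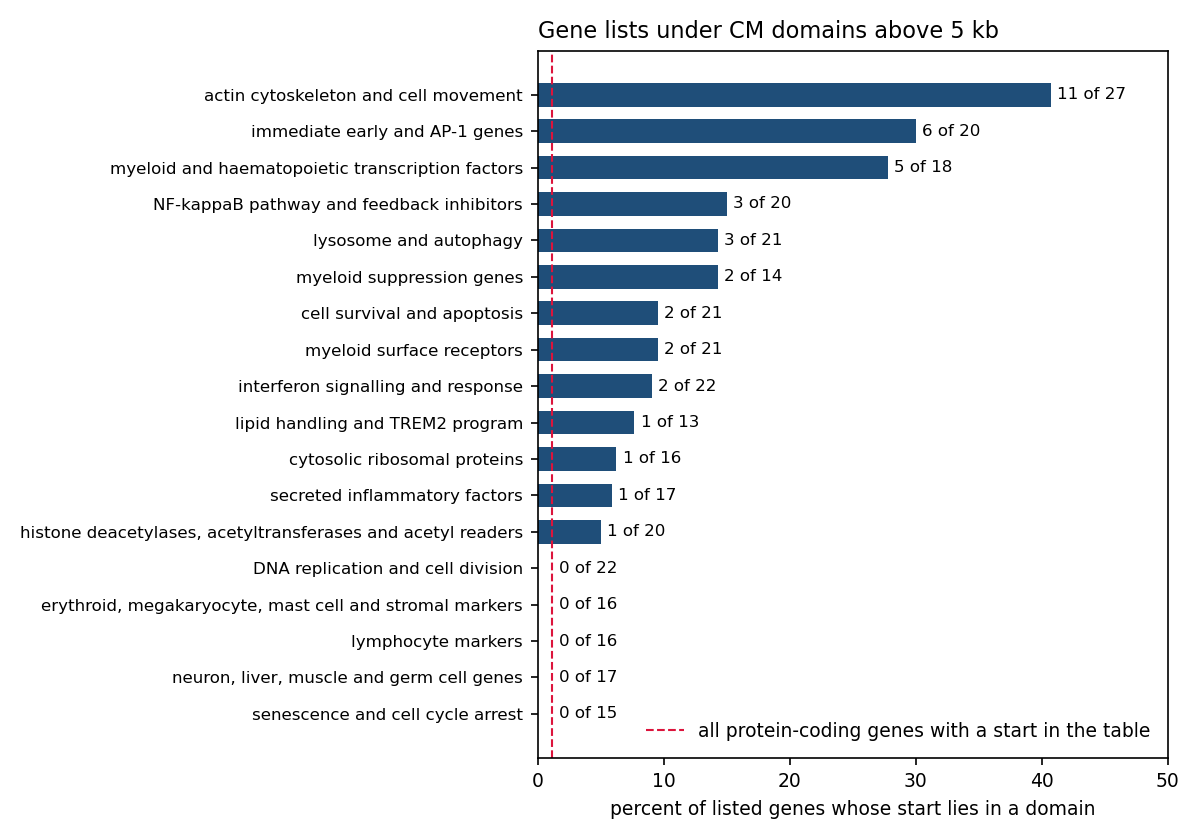
Percent of the listed genes with a start in the table whose start lies in a domain (horizontal axis), for each of 18 gene lists, with the number of genes beside each bar. The dashed line marks 1.15%, the share over all such protein-coding genes, and the bars run from 40.7% for actin and cell movement to 0% for 5 lists. The lists were chosen with earlier results of these data known.

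Every domain met a romidepsin peak, as did 99.9% of all CM peaks. In all, 225 domains were met by 1 romidepsin peak, 3 by 2 and 0 by none, and 99.8% of the domains' length was covered. Wholly inside 1 romidepsin peak lay 223 (97.8%, interval 95.0 to 99.3), beside 97.9% of all CM peaks, so being covered whole did not set the domains apart. Each domain had a romidepsin peak of its own, 228 distinct longest overlapping peaks for 228 domains. These partners had a median length of 16.3 kb (3.6 to 58.8), 2.61 times the domain (2.4 to 2.93, n = 228), and together measured 4.28 Mb, 2.99 times the domains' length. The same median ratio was 2.65 for CM peaks of 4 to 5 kb, 3.15 at 2 to 5 kb and 4.37 over all CM peaks. Relative to their own length the domains thus had the lowest ratio of the length classes, close to that at 4 to 5 kb. The romidepsin list held 318 peaks above 20 kb and 78 of them were such partners, as were 13 of its 23 peaks above 40 kb and 12 of its 20 widest. The 228 partners were among 103336 romidepsin peaks. A peak that covers a whole domain must itself be above 5 kb, so these counts are partly built in by the choice of domains.

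In 5 domains no single romidepsin peak covered the whole. The high-coordinate end of the Ski domain, on a corepressor of TGF-beta signalling, lay 75 bp beyond its romidepsin peak, and that of the Gm21188 domain 97 bp beyond. A gap between 2 romidepsin peaks fell inside the domains of Zeb2 and St8sia4. The fifth domain lay on chromosome 17 over AY036118 and Rn18s-rs5, which resemble ribosomal RNA. It had the lowest fold of all (3.39), and 2 romidepsin peaks covered 3660 of its 5250 bp. Reads of such multi-copy sequences can be placed at any copy, so its values are uncertain, as are those of Gm21188 and its neighbour Gm36161, of Lyz2 beside Lyz1, and of the histone gene clusters.

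The romidepsin peaks reached past both edges of most domains. The extension, from the edge of a domain to the outermost edge of the romidepsin peaks that overlap it, had a median of 4.14 kb on the low-coordinate side (interval 3.0 to 5.0, interquartile range 1.80 to 7.53) and 3.91 kb on the high-coordinate side (3.15 to 5.54, interquartile range 1.69 to 8.80). Together the sides added a median of 10.1 kb, and in 166 of 228 more than the domain's own length. CM peaks of 2 to 5 kb (n = 3325) had medians of 2.47 and 2.44 kb and, in sum, 5.78 kb. The sum rose with each class of CM peak length above 2 kb, from 5.32 kb at 2 to 3 kb over 7.16 kb at 3 to 4 kb and 7.65 kb at 4 to 5 kb. Extensions above 1 kb on both sides were found at 180 domains (78.9%), beside 53.6% of all CM peaks, and above 10 kb on at least 1 side at 73 (32.0%), beside 12.1%. Within the domains, length and total extension were weakly related (Spearman's rho 0.11, Pearson's r 0.18, n = 228, 1 library each).

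**Figure D3:**
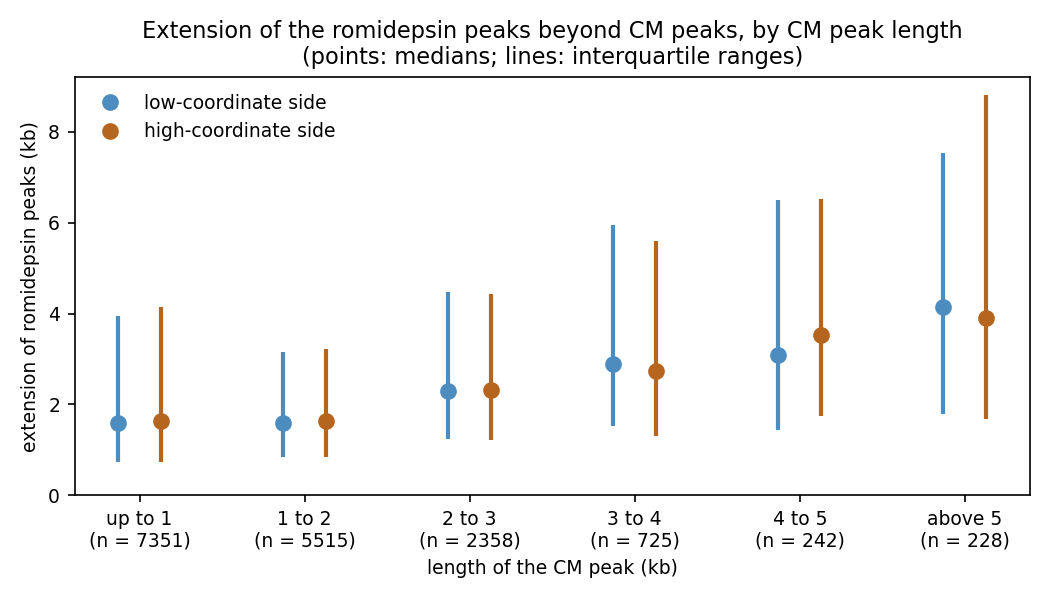
Extension of the romidepsin peaks beyond CM peaks (kb, vertical axis) on the low-coordinate (blue) and high-coordinate side (brown), by length of the CM peak (horizontal axis), with points for medians and lines for interquartile ranges. The medians above 5 kb, 4.14 and 3.91 kb, are the highest of the 6 length classes on either side.

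The extensions were seldom even. The low side was the longer one in 114 domains and the high side in 114, with a median of 7.18 kb on the longer and 2.06 kb on the shorter side, and in 105 domains the longer was at least 3 times the shorter. Only 6 domains gained more than 10 kb on both. The largest on the low side lay at Notch1, a receptor of cell fate signalling (45.2 kb), Lrp1, an endocytic receptor (42.0 kb), Furin, a proprotein convertase (34.5 kb), Mcl1 (34.1 kb) and Rara, the retinoic acid receptor alpha (30.0 kb). On the high side they lay at Capzb, encoding an actin capping subunit (48.1 kb), Tcirg1, encoding a subunit of the vacuolar proton pump (40.3 kb), Zmiz1, a transcriptional coregulator (36.5 kb), Vsir (27.5 kb) and Gpr146, an orphan receptor (27.4 kb). Opposite edges moved little at Lrp1 (1.21 kb), Tcirg1 (1.57 kb), Zmiz1 (1.88 kb) and Vsir (0.732 kb).

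**Figure D4:**
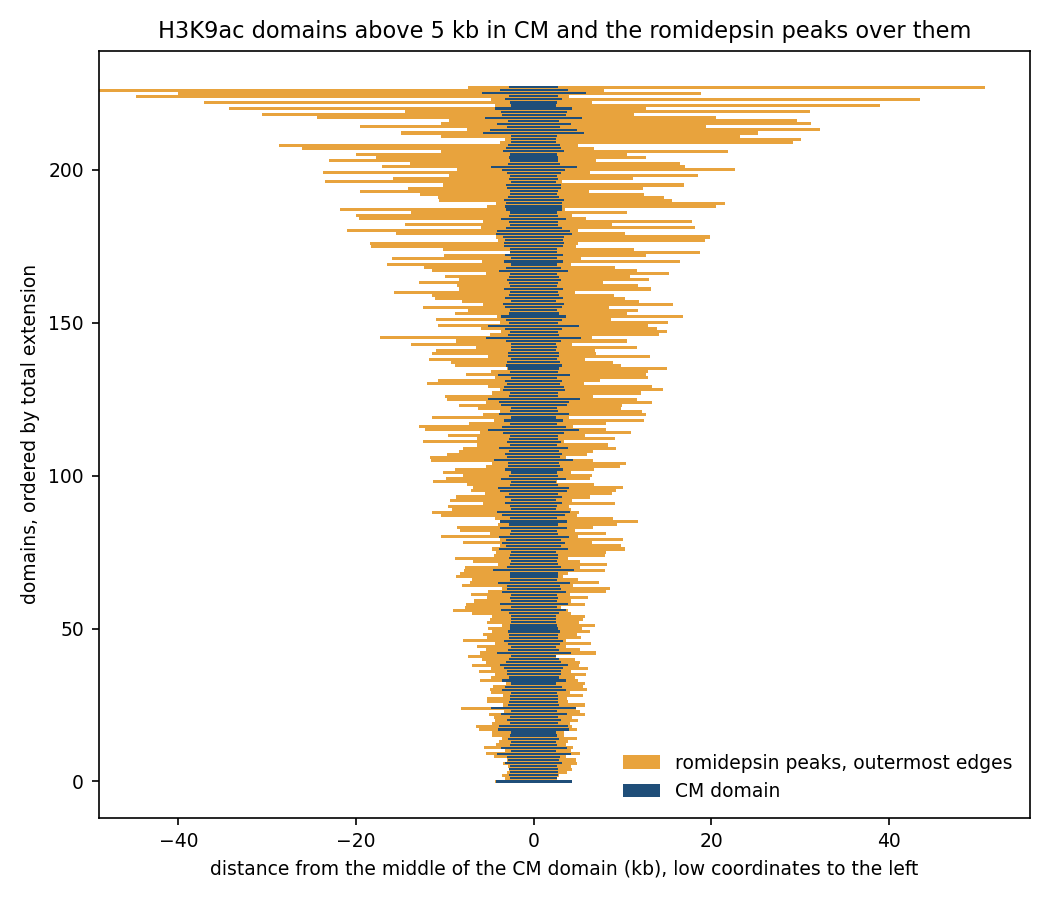
All 228 domains (blue) in order of total extension (vertical axis), each centred on its middle (kb, horizontal axis, low coordinates to the left), with the outermost edges of the romidepsin peaks that overlap it (orange). The orange bars reach further than the blue on both sides of most domains, by a median of 10.1 kb in all and by up to 48.1 kb on 1 side.

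For domains with a single start the extension also leaned into the gene. It was 6.04 kb downstream (4.31 to 7.18) and 2.72 kb upstream (2.11 to 3.44), and was larger downstream in 79 of 123 (64.2%), beside 73.7% of the peaks of 2 to 5 kb. The median share of the gene's length under the domain was 21.8%, and under the romidepsin peaks 54.2%. The gene lay wholly inside the domain in 13 of the 123 and wholly inside the romidepsin peaks in 41. At Notch1 the romidepsin peak of 56.9 kb ran past the far end of the gene, and at Lrp1 a peak of 48.7 kb ran from the promoter into the gene body.

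Long extensions took in neighbouring CM peaks. A median of 2.22 kb separated a domain from the nearest other CM peak, and 147 domains (64.5%) had one within 5 kb, whereas for CM peaks of 2 to 5 kb the median was 12.5 kb and 1125 (33.8%) had one. The partner held another CM peak besides the domain in 140 cases (61.4%), beside 33.1% at 2 to 5 kb, and 5 or more CM peaks in all in 31. It held 14 at Notch1, 12 at Gpr146, 10 at Zmiz1 and 9 each at Mcl1 and Plec. Of the 456 sides, 169 (37.1%) had another CM peak in the extension and a median length of 8.96 kb (interquartile range 6.02 to 13.9). The 287 sides without one had a median of 2.36 kb (1.32 to 4.35), so the longer extensions were mostly those that joined peaks already listed in CM. A long side can by its length hold more peaks, and the same medians at 2 to 5 kb were 7.22 and 1.96 kb. The longest side without another CM peak, 26.7 kb, lay at a domain in Setd5 that also covers Gt(ROSA)26Sor, the locus widely used for transgenes.

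Through these extensions the partners reached the starts of 34 protein-coding genes that overlap no domain, at 28 domains. Of the 34, 26 had a CM peak of their own at the start. Ensa was reached from Mcl1, Cdc6 from Rara, and Fes, a myeloid tyrosine kinase, from Furin. The other 8, whose start lay in no CM peak, were Ager, Fscn2, Gramd2, Ifitm10, Kcnk7, Lyz1, Mgrn1 and Znrd2, reached from the domains of Gpsm3 and Pbx2, Actg1, Pkm, Ctsd, Map3k11 and Pcnx3, Lyz2, Ubald1 and Ehbp1l1. Of all 17492 genes with a start in the table, 10341 (59.1%) started in a romidepsin peak and 7872 (45%) in a CM peak. The 26 of 34 lies near the ratio of these counts, so it did not set these genes apart.

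How far a romidepsin peak reached depended on narrow gaps in that list. Beyond the outer edge the next romidepsin peak followed at a median of 508 bp, within 500 bp on 222 of 456 sides (48.7%) and within 1 kb on 335 (73.5%). At CM peaks of 2 to 5 kb the median was 672.5 bp and 60.5% of sides had one within 1 kb. Joining romidepsin peaks less than 1 kb apart raised the median extensions to 9.69 kb on the low and 8.92 kb on the high side and the length ratio to 4.78. The domains with the smallest total extension show this. Capza2, encoding an actin capping subunit, had 0.818 kb on the low and 0.112 kb on the high side as deposited, 0.93 kb in all, and 37.7 kb once neighbours were joined. Il21r, the interleukin-21 receptor, had 1.33 kb as deposited and 16.7 kb joined, and Msl2, a subunit of a histone acetyltransferase complex, 1.53 and 7.27 kb. As deposited 7 domains gained at most 2 kb in all, and joined 1 did, the domain over AY036118 and Rn18s-rs5 (0.642 kb in both).

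Some domains had the same extension under either reading. At Sgk1 the romidepsin peak of 10.9 kb added 1.32 kb on the low and 2.37 kb on the high side, and the next romidepsin peaks lay 11.9 and 56.8 kb away. Cebpa gained 1.76 and 1.59 kb, with the next peaks 2.22 and 1.10 kb away, the latter just beyond the joining limit of 1 kb. Nfkbia gained 1.75 kb on the low and 6.31 kb on the high side. In contrast Zeb2, with 2.80 and 6.02 kb as deposited and the next peaks 397 and 576 bp away, came to a joined extension of 89.4 kb. Zmiz1 came to 94.7 kb. The joined values of Cebpa and Zeb2 thus turned on gaps that lay on either side of the 1 kb limit, and the romidepsin peaks around them were not counted.

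Extensions varied among the domains with the 5 highest and among those with the 5 lowest folds. Clec2d, encoding a C-type lectin-like ligand of NK cell receptors, had the highest fold (8.39) in a domain of 6.02 kb over its whole gene, and gained 2.14 kb in all. Txnip, the thioredoxin-interacting protein (fold 8.26, 6.51 kb), gained 16.2 kb. Tnrc18 (fold 8.17) gained 6.70 kb, Irf2bp2 (7.92) 13.4 kb and Zfp36 (7.80) 22.7 kb. Of the lowest folds, the domain over AY036118 (3.39) gained 0.642 kb, and that of Mmp8, the neutrophil collagenase (4.82), 6.69 kb. The domain of the histone genes H2ac10, H3c8 and H4c8 (4.84) gained 4.31 kb, that of Sema4d, a semaphorin (4.87), 18.1 kb, and that of Bcl11a (4.90) 8.48 kb. The ranges of both sets overlapped. Over the 228 domains fold and total extension showed no trend (Spearman's rho 0.04, 1 library each). The folds of the 2 lists rest on different backgrounds and were not compared.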

How the data were processed

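The data were 2 lists of broad peaks, 1 for each immunoprecipitated library. The submitters' processing notes name the build mm10, deepTools 3.5.1, MACS2 2.2.7.1 and Bowtie2 2.4.4. Settings, filters and the use of the input as control are not given in the sources used here. In the deposited lists each peak has a score, a ratio (its fold enrichment), and its −log10 p-value and −log10 q-value, all set by the authors' peak caller. They were used within each list only, for description, ranking and filters. Depth is unknown, since no read number is given.

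Positions were taken as deposited, with the first base numbered 1. Domains were CM peaks with end minus start above 5000 bp. A romidepsin peak counted as covering where it overlapped by at least 1 bp, and the longest was the partner. Gene starts came from the 300-base windows of a RefSeq table of GRCm38.p6, which held a start for 17492 of 21900 protein-coding genes, so the start counts are minimum counts. Of 430 listed entries 429 matched a gene. Python 3.11.15 with numpy 2.4.6, pandas 2.3.3, scipy 1.17.1 and matplotlib 3.10.9 was used, and the interval code was tested on simulated data. Shares carry exact Clopper-Pearson intervals and medians binomial order-statistic intervals at 95% confidence, and no test was run.

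The domains and the gene lists were chosen with earlier results of these data known. Domains were named where they ranked among the 10 widest, the 5 highest or lowest by fold, the 5 with the largest extension on either side, the 5 with the smallest total extension, or the 5 with the most CM peaks in the partner, where they were not wholly inside 1 romidepsin peak, where they lay next to the limit, and where they held a listed gene. Other domains were named with their values known. Alternatives changed the length limit, peak filters, merging of near peaks, the overlap rule and the gene rule.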

Additional observations from a re-analysis of the deposited data

How the results depend on the processing

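A limit of 4 kb gave 470 domains and one of 6 kb 103, and joining CM peaks less than 1 kb apart gave 403 domains above 5 kb, of which 92.6% lay wholly inside 1 romidepsin peak, with a length ratio of 2.30. Joining romidepsin peaks less than 1 kb apart gave 99.6% wholly inside, median extensions of 9.69 and 8.92 kb and a ratio of 4.78. Counting any part of a protein-coding gene in place of its start raised the share of domains with a gene from 76.3% to 97.4%. Filters on −log10 q and fold, equal numbers of peaks, chromosomes 1 to 19 and X, and an overlap of at least 50% left the number of domains, the share wholly inside, the extensions, the ratio and the share with a start inside the intervals of the reported values or, for the number, within 1.5 times. Filtering romidepsin peaks at a −log10 q of at least 5 left 224 domains with a romidepsin peak, and at a fold of at least 3 it left 227. Such filters drop whole romidepsin peaks and move no edge. At equal numbers of peaks all 228 partners were kept, so that setting could not change the extensions and is no check on depth. Of 36 recomputed gene list counts 31 stayed within 1.5 times and 5 did not, all of them higher, among them the senescence list, which went from 0 to 6 with a limit of 4 kb. No paired analysis was possible because each condition had 1 library. Depth, which is unknown, limits how far any edge can be placed, and genes without a start in the table were not counted.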

Other observations

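Neighbouring domains within 50 kb of each other formed 11 pairs. Malat1 and Neat1 lay 34.9 kb apart. Their romidepsin peaks measured 39.7 and 20.4 kb and ended 411 bp from each other, and once such gaps were joined a single stretch of 76.7 kb held both. The 2 domains at Rara (13.7 kb apart), those of Socs3 and Pgs1 (16.3 kb) and those of Map3k11 with Pcnx3 and of Ehbp1l1 (29.9 kb) also came to lie in 1 joined romidepsin peak, 4 pairs of the 11. The other pairs, among them Il4ra and Il21r (44.3 kb), Ly6e and Ly6a (32.8 kb), Chd2 and the non-coding Chaserr (9.67 kb) and 2 groups of histone genes on chromosome 13 (33.6 kb), did not.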
